A study of Mus musculus with 23 samples.

Results

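The genes described here encode enzymes that make heme and the inducible enzyme that breaks it down: Alas1, Alas2, Alad, Uros, Urod, Cpox, Ppox, Fech and Hmox1. They were taken by symbol from the deposited table of gene counts. All 9 had a row among its 24421 rows, and all 9 passed the filter on low counts that left 15475 genes for testing.

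Heme is an iron-containing ring that carries oxygen in haemoglobin, carries electrons in mitochondrial cytochromes and serves as the working centre of many enzymes. Its synthesis begins in mitochondria with 5-aminolevulinate synthase, made from Alas1 in most cells and from Alas2 in developing red cells, moves to the cytosol for the building of the ring, and returns to mitochondria, where ferrochelatase inserts iron. Heme oxygenase opens the ring and sets iron free, and in the brain the constitutive form, from Hmox2, is the abundant one, while Hmox1 is induced by heme, oxidants and low oxygen.

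The samples were polyadenylated RNA of the hippocampus, taken from mouse pups at postnatal day 14. Pups were made anemic by repeated bleeding from a facial vein (phlebotomy-induced anemia), which removes haemoglobin iron together with red cells. Each library was read as 1 pup, since the design text describes separate animals. The strain is not given in the labels used here.

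The 6 groups were formed by sex and by degree of bleeding. Non-bled controls (NBC) had only a needle prick at the neck, and comprised 4 females and 3 males, numbered 2, 3 and 4. Moderately anemic pups (mPIA, 4 females and 4 males) were bled to a goal of 25%, given as the haematocrit, and severely anemic pups (sPIA, 4 females and 4 males) to a goal of 18%. From postnatal day 3, 5.25 µl of blood per g of weight was taken 2 times a day until the goal was reached, and 3.5 µl per g daily afterwards.

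Library totals were 15.2 to 26.4 mega-counts (M), except for mPIA female 3 with 44.4 M. NBC male 4 stood apart from the other libraries on the first 2 principal components (66.5 and 40.2). Summed markers of hippocampal neurons lay between 5840 and 6760 CPM (counts per mega-count of the library) in all 23 libraries. Those of the choroid plexus, an adjoining tissue, lay between 111 and 6550 CPM, highest in NBC male 4. NBC male 3 (3450 CPM), NBC female 2 (2530 CPM) and sPIA female 2 (1970 CPM) were also high. The mPIA males lay at 125 to 191 CPM and the sPIA males at 145 to 362 CPM. The part of adjoining tissue in the comparisons with NBC males was not tested. Library codes in the labels begin with a number in NBC and mPIA females, with M in mPIA males and with P in sPIA females, NBC males and sPIA males. Code series and group therefore cannot be told apart in any comparison of sPIA females with other females, or of mPIA males with other males. The same holds for the sex differences of both effects, since each includes such a comparison.

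In females with severe anemia, 2 of the 9 genes rose against controls, in a comparison in which 16% of all genes passed: Alas2, the erythroid form of the first enzyme, 3.09-fold, and Cpox, which encodes coproporphyrinogen oxidase, 1.35-fold. None of the 9 passed against controls in moderate anemia of females (0.00646% of all genes did), moderate anemia of males (0.653%) or severe anemia of males (0.194%). Alad, which encodes the second enzyme, was lower in mean in severe anemia of both sexes, but its groups overlapped and it did not pass. Fech and Hmox1, the last step of synthesis and the inducible step of breakdown, did not pass in any comparison. Because the samples are bulk tissue, fewer cells of a type and less RNA per cell cannot be told apart in any of these values.

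**Figure D1:**
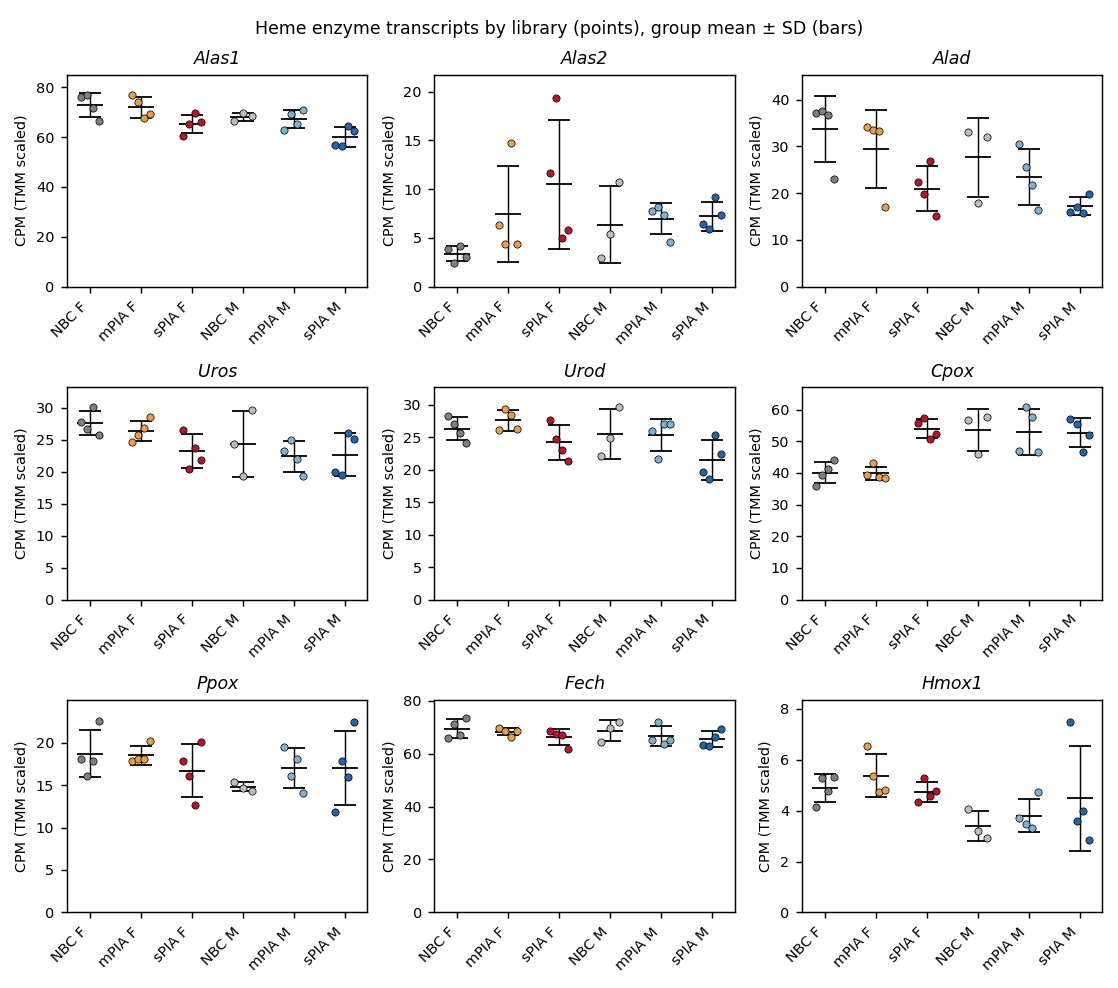
CPM (vertical axis, scaled by TMM library sizes, starting at 0) of each of the 9 genes in the 6 groups (F, females; M, males). Points are libraries, and bars give the mean and SD of 3 or 4 libraries. The 4 sPIA females lie above all NBC females for Alas2 and Cpox, and Fech varies least among the genes, from 61.6 to 73.6 CPM.

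Levels were compared between genes per kilobase of the longest annotated protein-coding transcript, as the mean over the 23 libraries. That length was 6571 bases for Fech and 1247 for Alad. The order depends on this choice, since the transcripts present were not measured. Hmox2, the constitutive heme oxygenase, was highest of the enzyme genes so compared, at 36.2 ± 2.31 CPM per kb (SD, n = 23), and lay above Alad in every library. Alad (20.3 ± 6.42) and Alas1 (19.9 ± 1.65) followed and could not be ordered, since Alad was the higher in only 12 of 23 libraries. Urod (16.8 ± 2.02), Cpox (15.7 ± 2.49) and Uros (13.9 ± 1.87) came next, and neighbours in that order exchanged places in 8 or 9 libraries. Fech lay at 10.2 ± 0.481 CPM per kb and Ppox at 9.44 ± 1.51. Alas2 (3.44 ± 1.97) and Hmox1 (2.86 ± 0.713) were lowest, and Alas2 was the higher of the pair in 11 of 23 libraries.

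Among the 9 genes the spread over libraries, as the highest CPM over the lowest, ran from 1.19 for Fech and 1.36 for Alas1 to 2.48 for Alad, 2.63 for Hmox1 and 7.79 for Alas2. Fech was measured from at least 1098 counts in every library. Alas2 and Hmox1 were measured from few, 46 to 671 and 53 to 215 counts, so their values are the least precise.

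Alas1 (chromosome 9, 106233455 to 106248654, minus strand, mm10) encodes the housekeeping form of 5-aminolevulinate synthase, which sets the rate of heme synthesis in most tissues and is repressed by heme. In NBC females its level was 76.1, 77, 71.6 and 66.3 CPM, and in sPIA females 60.6, 65.4, 69.5 and 65.9 CPM. The sPIA females were lower in mean, but sPIA female 3 lay above NBC female 4. This was a log2 difference of -0.16 (SE 0.07, adjusted p = 0.114, by the quasi-likelihood test of edgeR with Benjamini-Hochberg adjustment over all genes). With each library's trend with GC content and transcript length removed (limma), it was -0.07 (adjusted p = 0.593), and against mPIA females -0.06 (adjusted p = 0.698).

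Males gave a similar Alas1 difference without overlap. Levels were 66.3, 69.7 and 68.4 CPM in NBC males and 56.8, 56.5, 64.4 and 62.3 CPM in sPIA males, so that every sPIA male lay below every NBC male. Of all genes tested, 6.31% had sPIA and NBC males that did not overlap, in either direction. The log2 change was -0.18 (SE 0.07, edgeR adjusted p = 0.285) and did not pass. With moderate anemia Alas1 lay at 67.8 to 76.9 CPM in females and 62.9 to 70.9 CPM in males, changes of under 1 SE from controls in both sexes.

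Alas2 (chromosome X, 150547375 to 150570638, plus strand, mm10) encodes the erythroid form of the same enzyme, which supplies heme for haemoglobin and is known for 2 kinds of control: GATA1 drives its transcription in red cell precursors, and iron regulatory proteins bind a hairpin in its 5′ untranslated region and hold back translation when iron is scarce. The hairpin is shown because it marks Alas2 among these enzymes as the transcript read by iron, with the 6 loop bases in capitals. It begins at base 90 of the transcript and lies inside the 5′ untranslated region, which ends at base 126 (GENCODE M21, GRCm38). No other member held a match to the pattern searched, which 0.93% of 21924 protein-coding genes held: C, 5 bases, the loop CAGTG and 1 base other than G, with the 5 bases on each side able to pair, G with T included.
Alas2 hairpin: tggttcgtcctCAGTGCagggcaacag

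The stretch before the Alas2 start is printed together with that of Cpox, since these were the genes that rose. Each runs from 250 bases before to 30 bases after the RefSeq start (GRCm38.p6, plus strand of chrX:150547167-150547446 and of chr16:58669958-58670237). Capitals mark AGATAA or TGATAA, forms of the GATA motif, on either strand.
Alas2: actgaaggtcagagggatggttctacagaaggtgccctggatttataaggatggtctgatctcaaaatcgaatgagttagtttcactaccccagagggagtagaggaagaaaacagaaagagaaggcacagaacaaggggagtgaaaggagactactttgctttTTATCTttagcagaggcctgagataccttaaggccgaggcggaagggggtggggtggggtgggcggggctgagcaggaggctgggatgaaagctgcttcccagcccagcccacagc
Cpox: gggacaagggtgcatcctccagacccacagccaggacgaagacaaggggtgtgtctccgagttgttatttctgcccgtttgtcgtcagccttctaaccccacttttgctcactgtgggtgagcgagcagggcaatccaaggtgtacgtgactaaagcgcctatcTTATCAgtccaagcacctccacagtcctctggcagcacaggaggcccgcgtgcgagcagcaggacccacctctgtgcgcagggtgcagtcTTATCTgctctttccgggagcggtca

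The Alas2 window held 1 GATA match, beginning at base -86 from the start, and the Cpox window held 2, beginning at base -86 and at base 5. Of 32851 RefSeq mouse promoter windows of 300 bases, 18.6% held a match. Windows were given for 7 of the 9 genes, and among the others only the second of the Uros windows held 1. The E-box CACGTG (7.15% of windows) was found in those of Alad, Uros and Urod. The hypoxia core ACGTG, which CACGTG contains, was found in 19.6% of windows, among them those 3 genes and Cpox, where it began at base -106. The antioxidant motif TGACNNNGC (12.4% of windows) was in none of the 7. These matches describe letters in a window and show no binding.

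Alas2 rose in females with severe anemia. Its level was 3.84, 2.48, 4.17 and 3.06 CPM in NBC females and 11.7, 19.3, 4.99 and 5.84 CPM in sPIA females. All sPIA females lay above all NBC females, but the sPIA values fell into a high pair, females 1 and 2, and a pair close to the controls. Group means were 3.39 ± 0.764 and 10.5 ± 6.62 CPM (SD, n = 4 each), a fitted rise of 1.63 on the log2 scale (SE 0.48, edgeR adjusted p = 0.0276). In this comparison 21% of all genes had sPIA and NBC females that did not overlap, in either direction.

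The Alas2 call depended on single mice. It was lost without sPIA female 2 (log2 change 1.15, edgeR adjusted p = 0.103) and without NBC female 1 (1.70, adjusted p = 0.0605), NBC female 2 (1.51, adjusted p = 0.0796) or NBC female 4 (1.59, adjusted p = 0.0625). It was also lost in limma-voom (1.44, adjusted p = 0.115) and when only these 2 groups were fitted (1.62, adjusted p = 0.0509). An overlap of 12.9% of its exon bases with Apex2 on the opposite strand adds uncertainty, since no source used here gives the strand setting of the counting.

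In moderate anemia Alas2 lay at 6.36, 4.4, 14.7 and 4.35 CPM in females, again all above the NBC females, with mPIA female 3 apart from the other 3. Such separation, in either direction, was found for 1.54% of all genes in this comparison, but the change was not called (log2 change 1.18, SE 0.48, edgeR adjusted p = 1), and was 0.58 without mPIA female 3. The males did not separate. Alas2 levels were 2.96, 5.39 and 10.7 CPM in NBC males, 7.81, 8.13, 7.31 and 4.63 CPM in mPIA males and 6.41, 5.87, 9.22 and 7.34 CPM in sPIA males, and both changes were under 1 SE. NBC male 4 was the highest control, at 10.7 CPM. The sPIA effect was larger in females by 1.43 on the log2 scale (SE 0.69, edgeR adjusted p = 0.303) and the mPIA effect by 1.04 (SE 0.69, adjusted p = 0.786), neither of which passed. The former was 0.86 without NBC male 4, and the latter 0.48 without that mouse and 0.44 without mPIA female 3. Neither sex difference can be told apart from the code series.

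Markers of red cells and their precursors moved with Alas2. The list held 18 genes, of which 16 had a row. The 4 haemoglobin rows Hba-a1, Hba-a2, Hbb-bs and Hbb-bt are listed at 0 in all 23 libraries. That of Slc4a1, the anion exchanger of the red cell membrane, was near 0, at up to 1.88 CPM. The summed level of the 16 rows ran from 0.863 to 1.52 CPM in NBC females, from 1.39 to 3.25 CPM in mPIA females and from 1.4 to 4.45 CPM in sPIA females. Among males the sums ran from 1.39 to 2.67 (NBC), from 0.97 to 2.08 (mPIA) and from 1.01 to 2.79 CPM (sPIA). The libraries with the highest sums, sPIA female 2 and mPIA female 3, were those with the highest Alas2. Choroid plexus markers summed to 1970 CPM in the former and 187 CPM in the latter.

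Over the 23 libraries the log2 levels of Alas2 and of the summed erythroid markers were correlated (Pearson r 0.74, permutation p = 8e-05, adjusted p = 0.0004; Spearman's rho 0.67, permutation p = 0.00064, adjusted p = 0.00262; 5 relations computed, all listed here). Without sPIA female 2 and mPIA female 3, the farthest from the median of the markers, r was 0.59 (n = 21, permutation p = 0.00527, adjusted p = 0.00659) and rho 0.57 (p = 0.00832, adjusted p = 0.0104). For deviations from the group means r was 0.66 (permutation p = 0.00071, adjusted p = 0.00178) and rho 0.65 (p = 0.00105, adjusted p = 0.00262). Within code series, with groups pooled, r was 0.83 in the 8 NBC and mPIA females (permutation p = 0.0129, adjusted p = 0.0129) with rho 0.86 (p = 0.0111, adjusted p = 0.0111). In the 11 libraries of the P series r was 0.82 (permutation p = 0.002, adjusted p = 0.00333) with rho 0.83 (p = 0.00262, adjusted p = 0.00437). Permutations shuffled libraries across groups, so a shift between groups can add to these within-series values. The mPIA males, 4 libraries, were too few for a value. The part of erythroid RNA in the Alas2 differences was not tested.

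**Figure D2:**
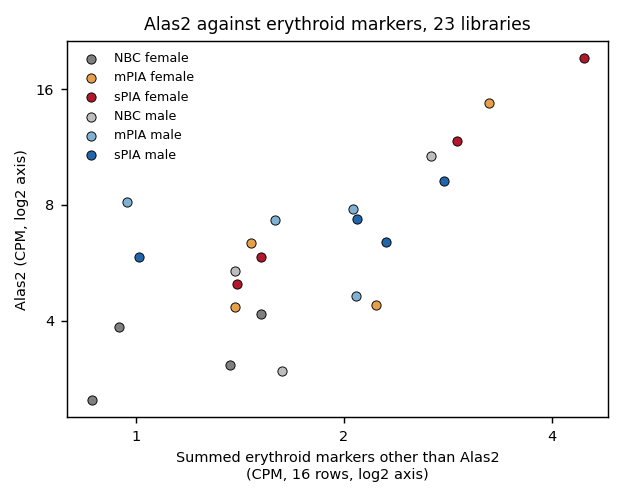
Alas2 (vertical, CPM on a log2 axis) against the summed level of 16 erythroid marker rows other than Alas2 (horizontal, CPM on a log2 axis), 1 point per library, coloured by group. The points rise together, and sPIA female 2 (19.3 CPM of Alas2) and mPIA female 3 (14.7 CPM) lie at the top right.

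By the likeness rule, the genes whose log2 CPM over the 23 libraries was most like that of Alas2 were Tfb2m (r 0.64), Blvrb (0.62) and Mterf3 (0.61), among 12506 genes compared. Blvrb encodes biliverdin reductase B, which reduces a product of heme breakdown and is abundant in red cells.

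Alad (chromosome 4, 62509169 to 62519918, minus strand, mm10) encodes aminolevulinate dehydratase, which joins 2 molecules of aminolevulinate to a pyrrole and is the enzyme that lead inhibits. In females its level was 37.2, 37.5, 36.8 and 23.1 CPM in NBC, 34.2, 33.5, 33.3 and 17 CPM in mPIA and 22.3, 19.8, 26.8 and 15.1 CPM in sPIA. Of the NBC and of the mPIA females, 3 lay close together and female 4 lay far below them. The sPIA females lay below those 3 in each group, but sPIA female 3 exceeded NBC female 4, so the groups overlapped. The log2 change of sPIA from NBC was -0.68 (SE 0.25, edgeR adjusted p = 0.0711), which did not pass.

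Whether Alad passed depended on the fit. Without NBC female 4 the change was -0.81 (edgeR adjusted p = 0.0345), and Alad also passed in DESeq2 (-0.67, adjusted p = 0.0442) and when only the 2 groups were fitted (-0.68, adjusted p = 0.0428). Against mPIA females it was -0.49 (SE 0.25, edgeR adjusted p = 0.193), and -0.67 without mPIA female 4 (adjusted p = 0.0459). With each library's trend with GC content and transcript length removed (limma), the changes were smaller, -0.44 against NBC (adjusted p = 0.37) and -0.23 against mPIA females (adjusted p = 0.691).

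In males Alad ran from 15.8 to 33 CPM, against 15.1 to 37.5 CPM in females. Levels were 33, 18 and 32.1 CPM in NBC, 30.6, 25.6, 21.7 and 16.3 CPM in mPIA, and 15.9, 17.1, 15.8 and 19.9 CPM in sPIA. The sPIA males were uniformly low, and NBC male 3 lay within their range. The log2 change of sPIA from NBC was -0.69 (SE 0.27, edgeR adjusted p = 0.306), of nearly the size found in females, and that from mPIA was -0.46 (SE 0.25, adjusted p = 0.304), or -0.28 with the trend removed (adjusted p = 0.643). In the fit of all groups without a block, the changes of Alad with moderate anemia were under 1 SE in both sexes.

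Alad followed the library codes of the labels as well as the groups. Both libraries of code 91 were low, NBC female 4 (23.1 CPM) and mPIA female 4 (17 CPM), while the 6 of codes 86 and 90 lay at 33.3 to 37.5 CPM. In these groups each mPIA female lay below the NBC female of the same number and code. With the code prefix as a block, in a fit of these groups alone, the log2 change of Alad in mPIA females was -0.20 (SE 0.06, edgeR adjusted p = 1) and did not pass, against -0.19 (SE 0.24) in the fit of all groups without it. Within the P series, P13 held 33 CPM in an NBC male and 26.8 CPM in an sPIA female. P14 held 18 CPM in an NBC male, 19.9 CPM in an sPIA male and 15.1 CPM in an sPIA female, so that 3 pups of this code were low whether bled or not. P11 held 15.8 and 19.8 CPM, both in sPIA. No source used here says what a code stands for, and its part in the Alad differences was not tested.

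The gene most like Alad over the 23 libraries was its neighbour Hdhd3 (r 0.88, rho 0.85, of 12506 genes compared), a choice made after the Alad values had been seen. Hdhd3 encodes a haloacid dehalogenase-like protein and lies on the same strand (chromosome 4, 62499008 to 62503467). Next came Hdac11 and Ndufaf3, each at 0.77, which lie on other chromosomes. Of the 9 other genes tested around Alad, none exceeded an r of 0.12, and Bspry and Pole3, the nearest on either side of this pair, had r of -0.36 and 0.03. Some laboratory mouse strains are known to carry more than 1 copy of Alad. Gene copy number was not measured here, and its part was not tested.

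**Figure D3:**
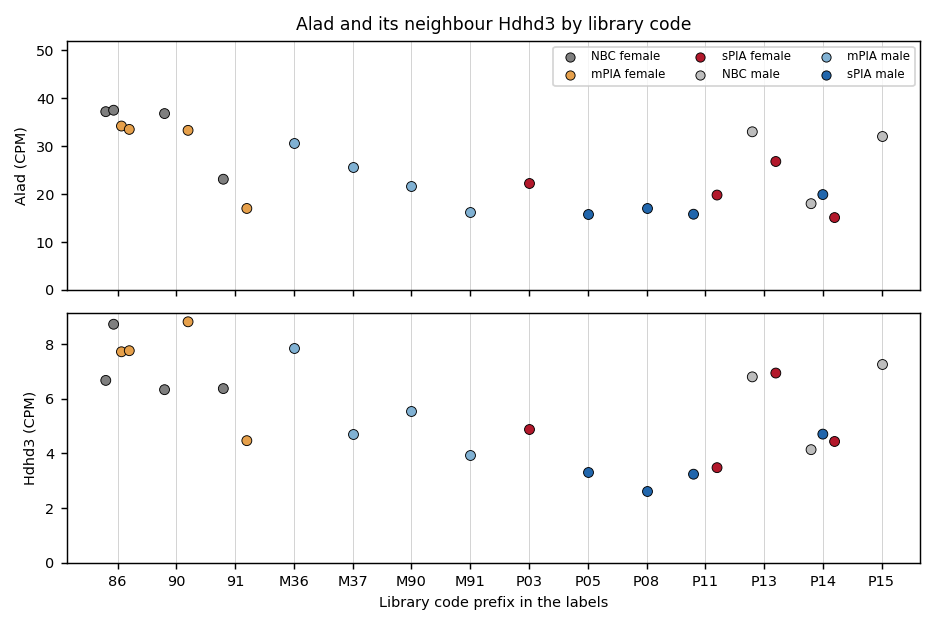
Alad (top) and Hdhd3 (bottom), CPM on axes that start at 0, for each library by the code prefix in its label (horizontal), coloured by group. Code 91 lies below codes 86 and 90 for Alad, and the 3 libraries of P14 lie low, at 15.1 to 19.9 CPM, across 3 groups.

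Uros and Urod encode uroporphyrinogen III synthase and uroporphyrinogen decarboxylase, which close the ring and trim its side chains. Uros (chromosome 7, 133686243 to 133710072, minus strand) was 27.8, 26.7, 30.2 and 25.8 CPM in NBC females and 26.6, 20.4, 23.7 and 21.9 CPM in sPIA females. Only sPIA female 1 reached the range of the controls, and the log2 change was -0.26 (SE 0.12, edgeR adjusted p = 0.145). In males Uros changed by under 1 SE with either degree of anemia.

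Urod (chromosome 4, 116989965 to 116994413, minus strand) was 22.1, 24.9 and 29.7 CPM in NBC males and 19.6, 18.6, 25.3 and 22.5 CPM in sPIA males. The ranges overlapped, and the log2 change was -0.25 (SE 0.12, edgeR adjusted p = 0.387). In females it was -0.12 (SE 0.11, adjusted p = 0.516), from 24.1 to 28.3 CPM in NBC and 21.3 to 27.7 CPM in sPIA, and its sign turned when each library's GC and length trend was removed (0.04). Against mPIA the changes of Urod were -0.19 in females (SE 0.11, adjusted p = 0.252), or -0.03 with the trend removed, and -0.24 in males (SE 0.11, adjusted p = 0.184).

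Cpox (chromosome 16, 58670292 to 58717636, plus strand, mm10) encodes coproporphyrinogen oxidase, the mitochondrial enzyme that uses oxygen to turn coproporphyrinogen into protoporphyrinogen. Its level was 35.9, 39.3, 41.2 and 44.1 CPM in NBC females, 39.4, 43, 38.8 and 38.4 CPM in mPIA females and 55.7, 57.4, 50.8 and 52.2 CPM in sPIA females. Every sPIA female lay above every NBC and every mPIA female, and the NBC and mPIA females overlapped. From means of 40.1 ± 3.43 and 54 ± 3.05 CPM (SD, n = 4 each), the log2 change of sPIA from NBC was 0.43 (SE 0.09, edgeR adjusted p = 0.00233).

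The Cpox difference from mPIA females was as large, 0.44 (SE 0.09, edgeR adjusted p = 0.0016). It was the only one of the 9 genes that passed there, where 16.1% of all genes did and 24.3% had groups that did not overlap, in either direction. Both comparisons share the sPIA females. Cpox passed against NBC in each alternative fit, with adjusted p from 0.000195 to 0.014, including that with the GC and length trend removed (0.39, adjusted p = 0.00451).

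Cpox in males lay at the level of the sPIA females whether or not the pups were bled. Levels were 56.7, 46 and 57.8 CPM in NBC males, 46.8, 60.8, 57.7 and 46.7 CPM in mPIA males and 56.9, 55.3, 46.6 and 51.9 CPM in sPIA males, with changes of under 1 SE. The 8 libraries with number codes, all NBC or mPIA females, thus held the lowest Cpox levels (35.9 to 44.1 CPM), below the 4 of the M series (46.7 to 60.8 CPM) and the 11 of the P series (46 to 57.8 CPM). In females the code series and severe anemia cannot be told apart, and in males, where NBC and sPIA share the P series, no Cpox change was detected. Summed markers of astrocytes differed along similar lines: 5980 to 6160 CPM in NBC females, 5890 to 6410 in mPIA females, 6440 to 7810 in sPIA females and 6270 to 8120 in males. Those of the endothelium lay at 275 to 287, 280 to 317, 290 to 339 and 249 to 371 CPM. Their part in the Cpox differences was not tested. The sPIA effect was larger in females than in males by 0.45 (SE 0.14, edgeR adjusted p = 0.0955), which did not pass in a comparison in which 0.95% of all genes did. It passed in DESeq2 (0.46, adjusted p = 0.0446) and without NBC male 3 (0.55, adjusted p = 0.0426).

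The genes most like Cpox over the 23 libraries were Pcmtd2 (r 0.93), Cyld (0.91) and Usp45 (0.91). Cyld encodes a deubiquitinase, as does Usp45. These points share the split between code series described above.

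**Figure D4:**
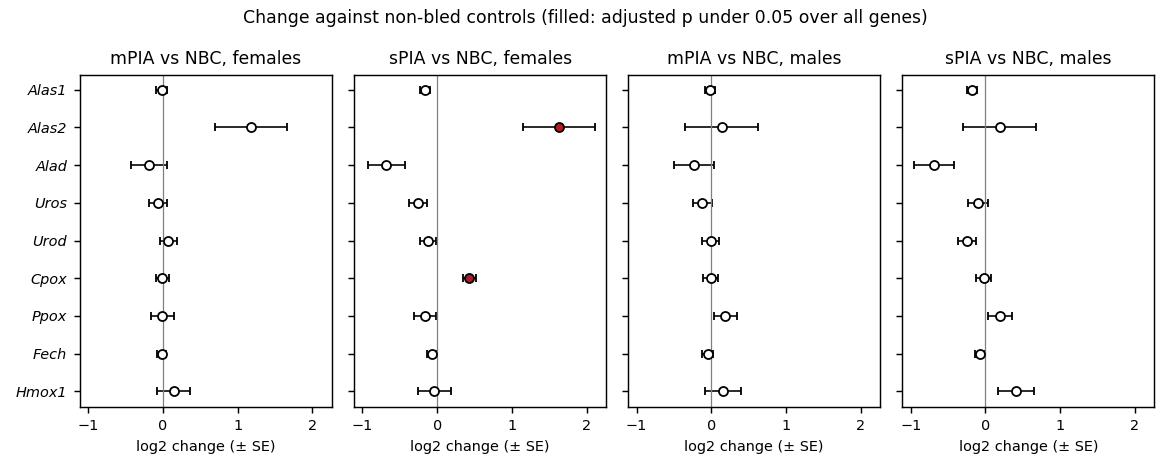
Log2 change from NBC (horizontal, ± SE) of the 9 genes in mPIA females, sPIA females, mPIA males and sPIA males. Filled points passed at an adjusted p under 0.05 over all genes (edgeR), namely Alas2 (1.63) and Cpox (0.43) in sPIA females.

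Ppox and Fech encode the last enzymes of the path, protoporphyrinogen oxidase and the ferrochelatase that puts iron into the ring. Ppox (chromosome 1, 171275990 to 171281186, minus strand) shares 17.5% of its exon bases with B4galt3 on the opposite strand, so its counts are uncertain. It lay at 18.1, 16.1, 17.8 and 22.6 CPM in NBC females and 17.8, 16.1, 12.6 and 20.1 CPM in sPIA females, overlapping ranges with a log2 change of -0.16 (SE 0.15, edgeR adjusted p = 0.514) that turned to 0.02 with the GC and length trend removed. In males the controls were tight, with a median of 14.7 and a highest value of 15.4 CPM, while the mPIA libraries ranged from 14.1 to 19.5 and the sPIA libraries from 11.8 to 22.4 CPM. These overlapped the controls, with log2 changes of 0.19 in both (SE 0.16, adjusted p = 0.584 and 0.674). The mPIA value was 0.10 with the GC and length trend removed, and the sPIA value ran from 0.03 without sPIA male 4 to 0.34 without sPIA male 1.

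Fech had the smallest spread of CPM over the libraries among the 9 genes. Its lowest level in any library was 61.6 CPM, in sPIA female 4, and its highest 73.6 CPM, in NBC female 4. The log2 change of sPIA from NBC was -0.07 in females (SE 0.06, edgeR adjusted p = 0.499) and -0.07 in males (SE 0.07, adjusted p = 0.702). In females it was -0.20 with the GC and length trend removed (limma adjusted p = 0.0509). With moderate anemia it was under 1 SE in both sexes.

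Hmox1 (chromosome 8, 75093621 to 75100589, plus strand) encodes the inducible heme oxygenase, whose transcription is held down by BACH1 and raised by NRF2. Its level was 4.14, 5.28, 4.77 and 5.34 CPM in NBC females, 6.56, 5.37, 4.72 and 4.83 CPM in mPIA females and 4.35, 5.27, 4.57 and 4.77 CPM in sPIA females. The 3 ranges overlapped, and neither change reached 1 SE. In males it was 4.05, 3.2 and 2.93 CPM in NBC and 7.47, 3.59, 4 and 2.84 CPM in sPIA. The log2 change there was 0.41 (SE 0.24, edgeR adjusted p = 0.524), and 0.04 without sPIA male 1, whose value was the highest of all libraries. Moderate anemia gave 3.3 to 4.73 CPM in males, a change of under 1 SE. At these levels, from 53 to 215 counts a library, small changes of Hmox1 were not detectable.

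Counted over the comparisons, 0 of the 9 genes passed for sPIA against mPIA in males (4.92% of all genes did). None passed for the sex difference of the mPIA effect, where 0% of all genes did. At an unadjusted p under 0.05, edgeR gave 1 of the 9 for mPIA against NBC in females (55 of all 15475 genes) and 0 in males (2475 genes). For sPIA against NBC it gave 5 in females (4502 genes) and 3 in males (1880 genes). For sPIA against mPIA it gave 2 in females (4557 genes) and 2 in males (3447 genes), and for the sex difference 0 for mPIA (1103 genes) and 1 for sPIA (2559 genes). DESeq2 and limma-voom also called none of the 9 for mPIA or for sPIA males. In sPIA females against NBC the median log2 change of the 9 was -0.12, with 2 positive, against a median of 0.00 and 50% positive over all genes. With the GC and length trend removed, Urod (0.04), Ppox (0.02) and Hmox1 (0.10) turned positive, and the other signs held.

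Hmox2, the biliverdin reductases Blvra and Blvrb, and Por, the reductase that gives electrons to heme oxygenase, act beside the 9 genes, and none of them passed in any comparison with NBC. Hmox2 lay at 64.8 ± 3.78 CPM (SD, n = 4) in NBC females and 60.6 ± 1.89 CPM (SD, n = 4) in sPIA females (log2 change -0.10, SE 0.07, edgeR adjusted p = 0.385). Blvrb was 3.76 ± 0.326 and 5.36 ± 2.59 CPM (log2 change 0.51, SE 0.25, adjusted p = 0.178), and Blvra 9.65 ± 0.567 and 8.47 ± 1.5 CPM (-0.19, SE 0.13, adjusted p = 0.38). Por fell in sPIA against mPIA males (log2 change -0.24, SE 0.07, adjusted p = 0.0398) and was named after its values were seen. Without single mice its call was lost in 6 of 8 fits, with adjusted p up to 0.161.

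Genes for the transport of porphyrins, heme and mitochondrial iron were compared between sPIA and NBC females. Slc25a39, a mitochondrial carrier needed for glutathione import, fell from 61.9 to 49.7 CPM (log2 change -0.32, edgeR adjusted p = 0.0214). Of 3 genes for the assembly of heme A and c-type cytochromes, Hccs, the lyase that attaches heme to cytochrome c, rose (0.28, adjusted p = 0.0397). Over 8 fits without single mice, Slc25a39 lost its call in 4 (adjusted p up to 0.107) and Hccs in 5 (up to 0.138). Means in NBC males, of the P code series like the sPIA females, were 48.3 CPM for Slc25a39 and 34 CPM for Hccs. Code series and severe anemia cannot be told apart in this comparison of females.

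Of 19 regulators of Alas1, Alas2 or Hmox1, 3 rose and none fell in sPIA females, where 16% of all genes passed. Bach1, the heme-sensing repressor of Hmox1, went from 20.3 ± 1.21 to 24.3 ± 0.774 CPM (SD, n = 4 each; log2 change 0.26, SE 0.08, edgeR adjusted p = 0.032). Nfe2l2, which encodes NRF2, rose from 13.7 to 19.1 CPM (0.48, adjusted p = 0.00944), and Hif1a, which encodes the oxygen-regulated subunit of the hypoxia factor, from 103 to 127 CPM (0.31, adjusted p = 0.00593). Among 14 other targets of NRF2 and BACH1, 1 rose, Me1, malic enzyme (0.23, adjusted p = 0.02). Of the 14, 13 had a positive change, against 50% of all genes, with a list median of 0.08. Some of these were close to 0, such as Srxn1 (0.01) and Ftl1 (0.02). With the GC and length trend removed, Nqo1 (-0.01), Gclm (-0.09) and Prdx1 (-0.05) turned negative, and the other signs held. Leaving out single mice ended the call of Bach1 in 6 of 8 fits (adjusted p up to 0.0936), of Me1 in 2 (up to 0.0904) and of Nfe2l2 in 1, that without sPIA female 3 (0.0562), and of Hif1a in none. NBC males, whose codes share the P series with sPIA females, had means of 128 CPM for Hif1a and 25.7 CPM for Bach1. Their means were 15.3 CPM for Nfe2l2 and 117 CPM for Me1. In females, code series and severe anemia cannot be told apart for any of these genes. In mPIA males, Bach1 lay below all NBC males (20.9 ± 1.29 CPM, n = 4, against 25.7 ± 2.05 CPM, n = 3, SD), a log2 change of -0.30 that did not pass (SE 0.09, edgeR adjusted p = 0.0887). Of all genes tested, 4.61% had mPIA males all below NBC males and 5.18% all above. The M and P code series cannot be told apart from the groups in this comparison.

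Of 21 tested genes for proteins that contain heme or serve them, 2 rose and 2 fell in sPIA females, against 16% of all genes that passed. Gucy1a2, a subunit of the nitric oxide receptor, rose from 108 to 148 CPM (log2 change 0.46, edgeR adjusted p = 0.00941), and Ptgs2, the inducible cyclooxygenase, from 27.1 to 40.6 CPM (0.58, adjusted p = 0.0359). Cyp46a1, the neuronal cholesterol 24-hydroxylase, fell from 133 to 97 CPM (-0.45, adjusted p = 0.00024), and Cyc1, cytochrome c1 of the respiratory chain, from 166 to 128 CPM (-0.38, adjusted p = 0.00142). Means in NBC males, of the P code series like the sPIA females, were 145 CPM (Gucy1a2), 30.3 (Ptgs2), 110 (Cyp46a1) and 135 (Cyc1). Here too, code series and severe anemia cannot be told apart in females. Of 13 globins, carriers and scavengers 6 passed the filter, and none rose or fell by edgeR. In mPIA males Cyp51, a cytochrome P450 of cholesterol synthesis, fell from 129 to 104 CPM (-0.31, adjusted p = 0.0419). Without single mice, Ptgs2 lost its call in 6 of 8 fits (adjusted p up to 0.122) and Cyp51 in 6 of 7 (up to 0.204), while the other 3 kept theirs.

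These calls were set beside values with each library's trend with GC content and transcript length removed. Of the 83 other pathway genes tested, 11 had passed in sPIA females, against 2472 of all 15475 genes, and 11 passed after removal, against 1021 of 14882 genes (6.86%), but only 3 in both, Nfe2l2 (0.43), Cyp46a1 (-0.24) and Gucy1a2 (0.41). Hif1a (0.07, adjusted p = 0.507, limma), Bach1 (0.14, adjusted p = 0.331) and Slc25a39 (-0.07, adjusted p = 0.69) lost their calls, as did the others. Alas2 (1.53, adjusted p = 0.0381) and Cpox (0.39) kept theirs. Genes that passed only after removal, with a positive change, were Mafg (0.29), Epas1 (0.24), Fth1 (0.22), Ftl1 (0.26), Cygb (0.33) and Lrp1 (0.15). Ppargc1a (-0.30) and Ireb2 (-0.18) passed only after removal with a negative change.

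**Figure D5:**
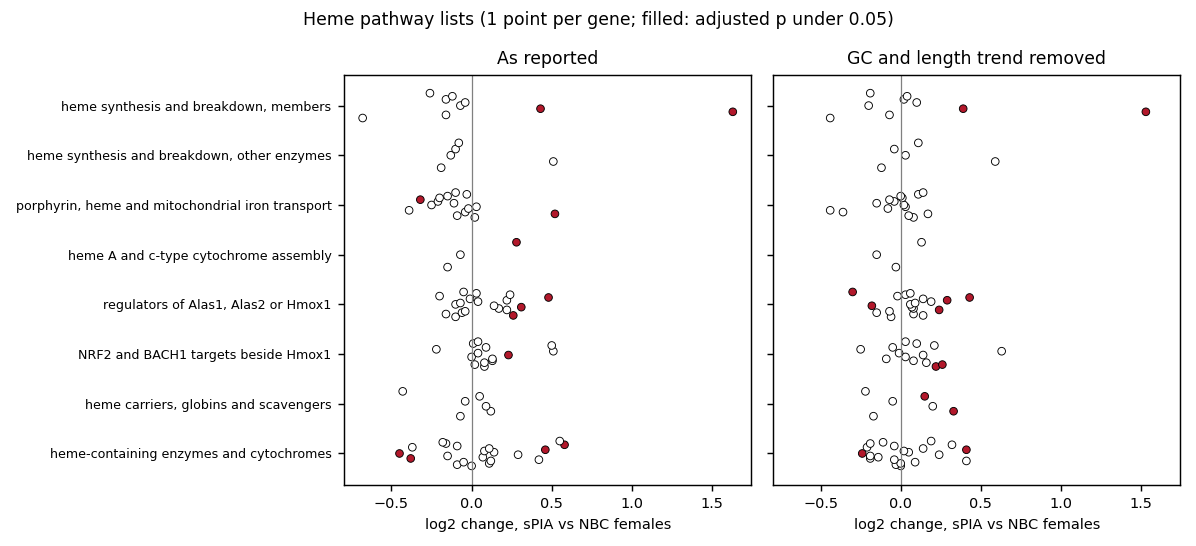
Log2 change of sPIA from NBC in females (horizontal) for each tested gene of 8 lists around heme, as reported (left) and with each library's GC and length trend removed (right). Filled points passed at an adjusted p under 0.05. Alas2 and Cpox are filled on both sides, and 3 genes of the other lists are.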

How the data were processed

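Polyadenylated RNA of the hippocampus was sequenced in 23 libraries of 6 groups. The RNAqueous kit and Illumina TruSeq library preparation were used, per the labels' protocols. The authors deposited raw counts per gene that were not normalized, as the values show. The tools used were FastQC, TopHat2 2.0.13, Subread and edgeR with the build mm10, per the submitters' processing notes. No source used here gives their roles, the annotation, the strand setting or the handling of multi-mapping reads. Every column was matched to a sample by name, with 0 left over, and 27 rows named by a date were kept in library sizes and tests but are not named.

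Counts were tested with edgeR's quasi-likelihood test (robust, TMM, 6 group means in 1 fit, filterByExpr with a minimum count of 10 and a minimum total of 15). Benjamini-Hochberg adjustment ran over 15475 genes within each of 8 comparisons, with a threshold of 0.05, and genes past that threshold are said to have risen, fallen or passed. Standard errors are on edgeR's log2 scale, and CPM use TMM library sizes. No pair of replicates agreed within counting error (chi-square divided by its degrees of freedom, 2.72 to 27.4). Groups were taken from the labels, where each library is a numbered sample of its group.

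Alternatives were DESeq2, limma-voom, library totals, no filter, only the compared groups, the replicate number as a block, removal of the trend with GC and length per library (lowess with a span of 0.3, limma, 14882 genes), the code prefix as a block and leaving out each library. The test was checked on simulated counts. Correlations used log2(CPM + 0.1) and 100000 permutations, two-sided.

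The members and all lists were chosen with earlier results of these data known. Named were the 9 members, up to 3 genes per list that passed in a comparison with NBC, the genes Hmox2, Blvra, Blvrb and Bach1 in every case, and the 3 genes most like Alas2 and Cpox. Some genes that this rule took are not reported here. Positions are from GENCODE M21 (GRCm38, or mm10), which annotated 95.6% of rows, and promoter windows from RefSeq (GRCm38.p6). Versions were edgeR 4.0.16, DESeq2 1.42.0 and limma 3.58.1 in R 4.3.3, and scipy 1.17.1 and matplotlib 3.10.9 in Python 3.11.15.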

Additional observations from a re-analysis of the deposited data

Results flagged for a closer look

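In 45 sets of 4 libraries (9 genes in the 5 groups of 4), 3 held a library far from the others, meaning a gap to the nearest that exceeded the 95% critical value of Dixon's test. Chance flags about 1 in 20 groups. Alad lay at 23.1 CPM in NBC female 4, against 36.8 to 37.5 CPM in the other NBC females. Alad lay at 17 CPM in mPIA female 4, against 33.3 to 34.2 CPM in the other mPIA females, and both of these mice carry the code prefix 91. Ppox lay at 20.2 CPM in mPIA female 4, against 17.8 to 18.1 CPM in the others.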

How the results depend on the processing

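Of 509 alternative values for the 32 member changes followed, 492 kept their direction and their side of the threshold, 6 lost a call, 6 gained one and 5 changed sign. In sPIA females against NBC, 2 members passed, 3 in DESeq2, 1 in limma-voom and 1 to 2 when a mouse was left out. Against mPIA females 1 passed, and 1 to 2 without a mouse. For the sex difference of the sPIA effect 0 passed, 1 in DESeq2 and 0 to 1 without a mouse. Among the changes followed, Urod (0.04) and Ppox (0.02) changed sign in sPIA females against NBC with the GC and length trend removed, as did Ppox against mPIA (0.02). The cause was not tested. Leaving out NBC male 4 or mPIA female 3, which stood apart in principal components or depth and were singled out after the data had been seen, changed no member's call. Leaving out a mouse gave -0.03 to 1.06 for Alas2 in sPIA against mPIA females and -0.12 to 0.41 for Hmox1 in males.

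Over all genes the count that passed ranged widely. In mPIA females it was 1, with 0 to 6 in other settings, and in mPIA males 101, with 0 to 384, and 0 to 1124 when a mouse was left out. In sPIA it was 2472 in females, with 1021 to 2870, and 30 in males, with 4 to 249 (without 1 mouse) or 6 to 157 (other settings). Between sPIA and mPIA it was 2499 in females (1173 to 3312) and 762 in males (204 to 1340). The sex difference gave 0 (0 to 69) for mPIA and 147 (5 to 465) for sPIA.

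Over all comparisons, mice of the same replicate number had correlations of deviations from -0.0761 to 0.149. Outside NBC and mPIA females the numbers did not pair the mice, and at most 1 per comparison correlated best with itself. In NBC and mPIA females all 4 numbers correlated best with themselves. There the labels give both mice of a number the same code prefix (86 for numbers 1 and 2, 90 for 3 and 91 for 4), whose meaning no source used here gives. With the replicate block, Cpox (0.43, adjusted p = 0.00262, edgeR) and Alas2 (1.66, adjusted p = 0.0417) still passed in sPIA females, and no member gained a call. With the code prefix as a block, 0 members and 6 genes in all passed in mPIA females. Depth limits Alas2 and Hmox1, counted from as few as 46 and 53 reads.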
